A study of Homo sapiens with 6 samples.

Results

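The interferon-stimulated genes described here are 43 genes that cells switch on in response to interferon, among them antiviral effectors, membrane proteins that block viruses, the ISG15 modification system, and the factors STAT2, IRF7 and IRF9. Members were taken as the rows whose gene symbol equals a name of the list, and all 43 were found among the 20522 rows of the per-library tables, of which 19684 carry an Ensembl identifier. The libraries are mRNA-seq of K1, a human papillary thyroid carcinoma cell line: 3 libraries of cells transfected with a negative control siRNA (NC) and 3 of cells transfected with an siRNA against NEAT1_2 (si-NEAT1_2), the long transcript of the lncRNA NEAT1. All libraries therefore come from 1 cell line, both groups received an siRNA by lipid transfection, and the time after transfection is not given in the sources used here. The study's methods speak of pairs of NC and si-NEAT1_2 cells without saying which libraries form a pair. Nothing states that replicates were separate cultures, so p-values measure only the spread between these libraries, which may be technical. In bulk RNA, fewer responding cells and less RNA per cell cannot be told apart. NEAT1 itself was not analysed here, so the depletion was not checked in these libraries.

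Type I and type III interferons bind cell surface receptors and activate the kinases JAK1 and TYK2, which phosphorylate STAT proteins. The resulting complex ISGF3, which holds STAT2 and IRF9, enters the nucleus and binds the interferon-stimulated response element (ISRE) in the promoters of its target genes. Interferon gamma acts through another element, the gamma-activated site (GAS). The induced proteins bind viral RNA, degrade RNA, stop membrane fusion or feed back on the signal. Many of these genes also keep a basal level in epithelial tumor cells without infection.

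The letters of the ISRE are found in the promoters of many, but not all, of these genes, so a few sites are shown before the values. The pattern GAAA, any 2 bases, GAAA was searched on both strands of RefSeq promoter windows (GRCh38.p14) that run from 250 bases before to 50 bases after the transcription start. Of the 35 members with a window, 25 (71.4%) held the pattern, compared with 4.38% of the 27305 genes with a window. Names absent from that table were OAS2, IFIT2, OASL, IRF7, IFITM2, USP18, MX2 and TRIM22. The GAS pattern TTC, any 3 bases, GAA, searched in the same way, was in 11 of the 35 members (31.4%) and in 9.38% of all genes. These 11 members had 13 GAS sites, a site in several windows of 1 gene counted once, and 5 of the sites overlapped an ISRE match. The sites below belong to ISG20, IFI27, IFI6 and BST2, which were higher in si-NEAT1_2 libraries in both fits described later, to IFI44L and IFIT1, whose difference grew with the GC correction, to GBP1, which lay lower, and to PARP9 and DTX3L, neighbouring genes that share 1 site. They are written 5′ to 3′ on the gene's strand, with the matched letters in capitals. Where the capitals read TTTC, the pattern lies on the opposite strand.
ISG20 (chr15:88638937-88638966, plus strand): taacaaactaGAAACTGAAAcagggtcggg
IFI27 (chr14:94110631-94110660, plus strand): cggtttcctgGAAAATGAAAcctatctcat
IFI6 (chr1:27672288-27672317, minus strand): ggagagagggGAAAATGAAActgcagagtg
BST2 (chr19:17405741-17405770, minus strand): tcctttctggGAAACTGAAActgaaaacct
IFI44L (chr1:78620365-78620394, plus strand): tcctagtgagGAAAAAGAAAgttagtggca
IFIT1 (chr10:89392510-89392539, plus strand): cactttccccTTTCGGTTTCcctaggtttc
GBP1 (chr1:89065316-89065345, minus strand): aacgaagtacTTTCAGTTTCatattactct
DTX3L (chr3:122564322-122564351, plus strand): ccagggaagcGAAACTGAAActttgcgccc
PARP9 (chr3:122564322-122564351, minus strand): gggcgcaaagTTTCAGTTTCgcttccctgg
The matched letters began 69 bases before the start site in ISG20, 115 bases before it in IFI6, 130 bases before it in BST2 and 103 bases before it in IFIT1. The windows of OAS1, IFI35 and IRF9 held 0 ISRE matches and 1 GAS match each, and those of STAT2, HERC6, CMPK2, SAMD9L, UBE2L6 and XAF1 held neither pattern. A match is a description of letters and says nothing about binding in these cells.

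The total expected count per library ranged from 22798631 to 27066025. The thyroid markers PAX8 (113 to 169 FPKM), FOXE1 (5.75 to 8.78 FPKM) and TG (2.48 to 2.99 FPKM) were present in all libraries, while TSHR, NKX2-1 and SLC5A5 stayed under 0.1 FPKM in each. Of the 5 epithelial markers, KRT8 (1149 to 1586 FPKM) and KRT18 (391 to 579 FPKM) were high, EPCAM was at 1.27 to 1.73 FPKM, and KRT19 (0.18 to 0.70 FPKM) and CDH1 (0.080 to 0.38 FPKM) were low. The summed level of the 3 endothelial markers was 0.07 to 0.18 FPKM in si-NEAT1_2 and 0.12 to 0.18 FPKM in NC. The 3 fibroblast markers summed to 1.55 to 3.60 FPKM in NC and to 1.65 to 3.69 FPKM in si-NEAT1_2. Of the 6 immune markers, PTPRC, CD3E and LYZ were at or near 0, and the summed level, nearly all of it CD68, was 12.0 to 13.5 FPKM in NC and 15.1 to 20.01 FPKM in si-NEAT1_2. CD68, a lysosomal protein of macrophages that other cells also make, had a log2 fold change of 0.55 ± 0.15 (SE), which was 0.22 ± 0.13 after the GC and length correction described below. The part of CD68 in the results was not tested.

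More interferon-stimulated genes had a positive than a negative log2 fold change in the si-NEAT1_2 libraries, and 7 were higher at an unadjusted p under 0.05 both with and without a correction for GC content and length: ISG20, OAS1, OAS2, OASL, IFI6, IFI27 and BST2. The share of all genes higher by this rule in both fits is not given here. It can be at most 8.24%, the share with the correction alone. Of the 43 members, 38 had enough counts to be tested, and 28 of the 38 had a log2 fold change (si-NEAT1_2 minus NC) above 0, compared with 50.9% of the 13109 genes tested. Their median log2 fold change was 0.31, and that of all genes was 0.01. An unadjusted p under 0.05 was found for 15 members that were higher (11.2% of all genes tested were higher by this rule) and for 2 that were lower (12.9% of all genes). In 15 members every si-NEAT1_2 library lay above every NC library on the CPM scale (read counts scaled by TMM to a common library size, 15.4% of all genes did so). In PARP14 and GBP1 every si-NEAT1_2 library lay below (14.1% of all genes). ISG20 and IFI27 had only 7 and 9 reads in NC replicate 2. In a fit that required at least 10 reads in every library, they were left out and 36 members were tested. Of the 36, 13 were higher at an unadjusted p under 0.05 (11.6% of all genes) and 3 lower (13.4%).

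None of these differences passed the thresholds taken from the study's methods, an adjusted p under 0.05 together with a change of at least 2-fold. The number called with edgeR (quasi-likelihood fit, Benjamini-Hochberg adjusted) was 0 members, as it was 0 of all genes (0% higher and 0% lower). The lowest adjusted p of a member from edgeR was 0.170, and the 17 members with an unadjusted p under 0.05 had adjusted p values of 0.170 to 0.178. With limma-trend on the FPKM values 0 members were called and 13 were higher at an unadjusted p under 0.05, both with 1 added to FPKM (8.17% of all genes were higher) and with 0.1 added (8.05%). DESeq2 called 1 member, IFI6 (0.114% of all genes were called higher), and gave 4 members, IFI6, OASL, OAS1 and IRF9, an adjusted p under 0.05 (1.28% of all genes were higher by that rule). Without a filter on low counts, edgeR also called IFI6 (0.0479% of all genes were called higher). When si-NEAT1_2 replicate 1 was left out, edgeR called 4 members, IFI27, BST2, IFI6 and OASL (0.241% of all genes were called higher), and 6 members, with IFITM3 and IRF9 added, had an adjusted p under 0.05 (1.6% of all genes were higher by this rule). At an unadjusted p under 0.05, 16 members were then higher (15% of all genes) and 4 lower (18% of all genes). With the GC and length correction as well, edgeR called 0 members without si-NEAT1_2 replicate 1 (0.0236% of all genes were called higher). At an adjusted p under 0.05 alone, 0 members were higher in that fit (0.0629% of all genes), and the lowest adjusted p of a member was 0.0906.

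**Figure D1:**
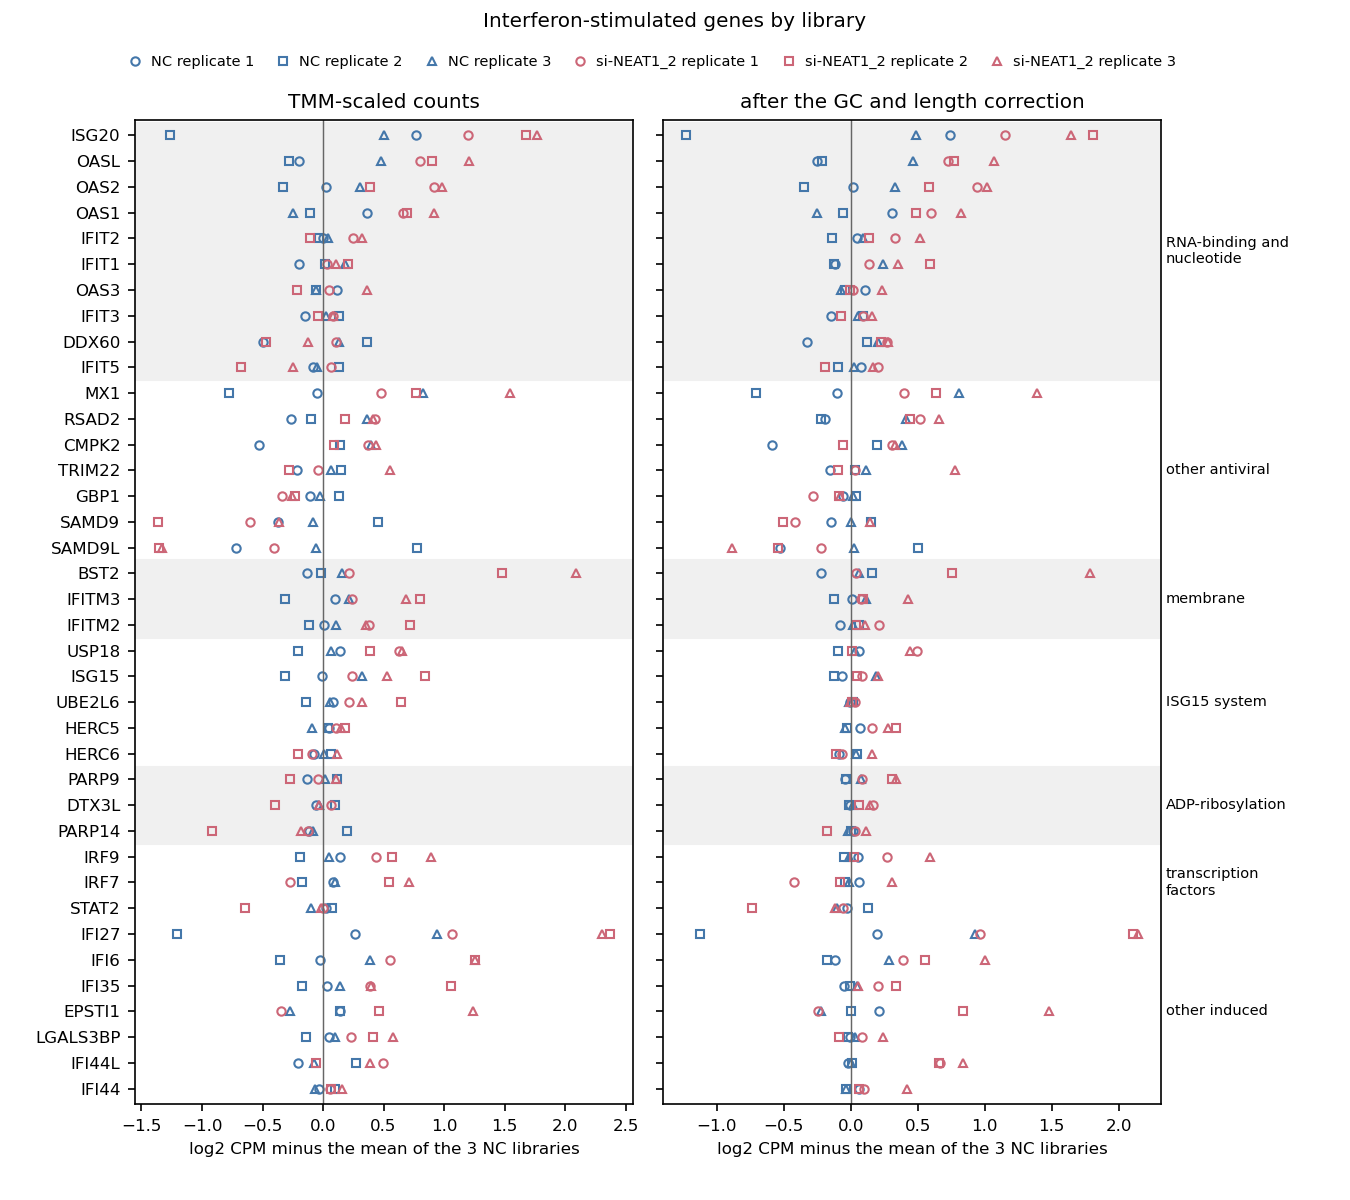
Each row is 1 of the 38 members tested, and each symbol is 1 library, placed at its log2 CPM minus the mean of the 3 NC libraries; blue symbols are NC and red symbols are si-NEAT1_2, before (left) and after (right) the GC and length correction. ISG20, IFI27, BST2 and IFI6 have red symbols far to the right, OAS1, OAS2 and OASL have all red symbols right of the blue ones, while the red squares of SAMD9, SAMD9L and PARP14 lie to the left in the left panel and nearer 0 in the right panel.

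Among the RNA-binding and nucleotide effectors, the genes of the oligoadenylate synthetase family differed from each other. OAS1, OAS2 and OASL had CPM groups without overlap (15.4% of all genes tested were higher in this way), and those of OAS3 overlapped. OAS1, OAS2 and OAS3 make the oligoadenylates that activate RNase L, and OASL is a related protein without that activity that strengthens RIG-I signaling. OASL (chr12:121019111-121039242 on GRCh38, GENCODE 29) had 11.6, 10.9 and 18.6 CPM in NC replicates 1, 2 and 3 and 23.3, 24.9 and 30.8 CPM in si-NEAT1_2 replicates 1, 2 and 3. All 3 si-NEAT1_2 libraries were above all 3 NC libraries, with a log2 fold change of 0.94 ± 0.21 (SE). OAS1 (chr12:112906777-112933222) had 12.5, 8.99 and 8.14 CPM in the NC libraries and 15.4, 15.7 and 18.4 CPM in the si-NEAT1_2 libraries. Its groups did not overlap either, and the log2 fold change was 0.74 ± 0.19. OAS2 (chr12:112978395-113011723) had 4.52, 3.52 and 5.5 CPM in the NC libraries and 8.46, 5.83 and 8.88 CPM in the si-NEAT1_2 libraries, a log2 fold change of 0.77 ± 0.24. The lowest si-NEAT1_2 library of OAS2 was only slightly above the highest NC library on the CPM scale, and the groups overlapped on the FPKM scale (1.44, 1.05 and 1.69 FPKM in the NC libraries and 2.29, 1.5 and 2.11 FPKM in the si-NEAT1_2 libraries). OAS3, the most abundant gene of the group at 18.5 to 28.5 FPKM, had 151, 134 and 134 CPM in the NC libraries and 144, 119.8 and 179 CPM in the si-NEAT1_2 libraries. The OAS3 groups overlapped, and its log2 fold change of 0.08 ± 0.15 changed sign to -0.09 with limma-trend on FPKM.

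ISG20, an exonuclease that degrades single-stranded RNA, was the other member of this group with a large difference. ISG20 (chr15:88636153-88656483) had 1.46, 0.297 and 1.2 CPM in NC replicates 1, 2 and 3 and 1.99, 2.81 and 3.0 CPM in si-NEAT1_2 replicates 1, 2 and 3, at a level of 0.20 to 3.4 FPKM. Every si-NEAT1_2 library was above every NC library, but NC replicate 2 was far below the other NC libraries. The log2 fold change was 1.38 ± 0.47, and without NC replicate 2 it was 0.96.

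The IFIT proteins, which bind foreign RNA ends and block translation, had overlapping groups on the CPM scale. IFIT1 had 25.6, 29.7 and 33.4 CPM in the NC libraries and 30.1, 33.9 and 31.7 CPM in the si-NEAT1_2 libraries. IFIT2 had 17.4, 17.1 and 17.9 CPM in the NC libraries and 20.8, 16.2 and 21.9 CPM in the si-NEAT1_2 libraries. In both, the groups overlapped, with log2 fold changes of 0.11 ± 0.15 and 0.17 ± 0.16. Without NC replicate 1, the log2 fold change of IFIT1 was -0.0011. IFIT3 and IFIT5 had log2 fold changes of 0.04 ± 0.13 and -0.26 ± 0.20, and the RNA helicase DDX60 had -0.19 ± 0.24. Across the 10 genes of this group, 4 were higher at an unadjusted p under 0.05 (11.2% of all genes tested) and 0 were lower (12.9%), with a median log2 fold change of 0.14. After the GC and length correction 6 were higher (8.24% of all genes) and 0 lower (8.08%), with a median of 0.35.

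The GTPases and other antiviral effectors had log2 fold changes in both directions. MX1, a GTPase that traps viral nucleocapsids, had 2.52, 1.48 and 4.69 CPM in the NC libraries and 3.66, 4.49 and 7.76 CPM in the si-NEAT1_2 libraries. The si-NEAT1_2 libraries were mostly higher but NC replicate 3 lay among them, with a log2 fold change of 0.87 ± 0.40. GBP1, a GTPase that acts on intracellular pathogens and is the most abundant gene of this group, had 46.7, 55 and 49.2 CPM in the NC libraries and 39.6, 42.7 and 42 CPM in the si-NEAT1_2 libraries. Every si-NEAT1_2 library was below every NC library, although the log2 fold change was small at -0.28 ± 0.13. RSAD2, the gene of viperin, had 3.46, 3.9 and 5.39 CPM in the NC libraries and 5.65, 4.74 and 5.6 CPM in the si-NEAT1_2 libraries, and its groups overlapped with a log2 fold change of 0.33 ± 0.24. For CMPK2, its neighbour on the opposite strand, the log2 fold change was 0.27 ± 0.35, and for TRIM22 it was 0.11 ± 0.22. RSAD2 and CMPK2 share exon bases, and whether reads were assigned by strand is not given in the sources used here.

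SAMD9 and SAMD9L, neighbouring genes of antiviral and growth-restraining proteins, were the 2 members that were lower at an unadjusted p under 0.05. SAMD9L had 4.81, 13.7 and 7.67 CPM in the NC libraries and 6.02, 3.06 and 3.12 CPM in the si-NEAT1_2 libraries. SAMD9 had 10.03, 17.9 and 12.3 CPM in the NC libraries and 8.54, 5.0 and 10.1 CPM in the si-NEAT1_2 libraries. In both genes NC replicate 2 was the highest library and si-NEAT1_2 replicate 2 the lowest, and the groups overlapped. The log2 fold changes were -1.10 ± 0.38 for SAMD9L and -0.76 ± 0.28 for SAMD9. Both have low GC content (38.5% and 36.0%), and when NC replicate 2 was left out, 0 members were lower at an unadjusted p under 0.05 (4.08% of all genes were).

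The 3 tested genes of membrane restriction factors had positive log2 fold changes, each with an unadjusted p under 0.05 (11.2% of all genes tested were higher by this rule). After the GC and length correction only 1, BST2, had such a p (8.24% of all genes were higher), and the median went from 0.58 to 0.20. IFITM2 and IFITM3 sit in endosomal membranes and stop viruses from fusing, and BST2 (tetherin) holds budding virions at the cell surface. IFITM3 was the most abundant interferon-stimulated gene, with 252, 194 and 276 FPKM in the NC libraries and 279.6, 375 and 372 FPKM in the si-NEAT1_2 libraries. In CPM, IFITM3 had 201, 151 and 219 CPM in the NC libraries and 222, 328 and 302 CPM in the si-NEAT1_2 libraries, and the groups did not overlap, by a small margin, with a log2 fold change of 0.58 ± 0.18. IFITM2 had 30.1, 27.6 and 32.2 CPM in the NC libraries and 38.9, 49.4 and 38.3 CPM in the si-NEAT1_2 libraries, a log2 fold change of 0.49 ± 0.15. Reads were divided between the IFITM genes, since the expected counts of IFITM2 and IFITM3 were not whole in any of the 6 libraries while the sum of IFITM1, IFITM2 and IFITM3 was whole within 0.02 in 6 of 6 libraries. The summed level was 220 ± 37.2 CPM in NC and 326 ± 59.8 CPM in si-NEAT1_2 (SD, n = 3), 1.48-fold higher, with a two-sided exact permutation p of 0.1, the smallest that 3 libraries against 3 can give. IFITM3 makes up most of this sum, so the sum adds no separate evidence. It was not corrected for GC content and length, and after that correction the groups of IFITM2 and of IFITM3 overlapped.

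BST2 (chr19:17402939-17405648) had 0.62, 0.679 and 0.775 CPM in NC replicates 1, 2 and 3 and 0.813, 2.06 and 3.2 CPM in si-NEAT1_2 replicates 1, 2 and 3. All 3 si-NEAT1_2 libraries were above the NC libraries, but replicate 1 lay just above the highest NC library and replicates 2 and 3 well above it. The log2 fold change was 1.54 ± 0.49, the second largest of the members tested, at a level of only 0.62 to 3.12 FPKM.

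Within the ISG15 system, 3 of 5 genes were higher at an unadjusted p under 0.05 (11.2% of all genes tested). After the GC and length correction HERC5, which was not among those 3, was the only gene of the 5 higher by this rule (8.24% of all genes). The median log2 fold change went from 0.40 to 0.11. ISG15 is a ubiquitin-like protein, UBE2L6 the enzyme that carries it, HERC5 the ligase that attaches it, and USP18 the protease that removes it and also dampens the interferon receptor. ISG15 had 44.2, 35.8 and 55.8 CPM in the NC libraries and 52.5, 79.7 and 64.2 CPM in the si-NEAT1_2 libraries, with a log2 fold change of 0.53 ± 0.19 although NC replicate 3 was above si-NEAT1_2 replicate 1. UBE2L6 had 27.9, 24 and 27.5 CPM in the NC libraries and 30.7, 41.3 and 33.1 CPM in the si-NEAT1_2 libraries. USP18 had 4.16, 3.27 and 3.95 CPM in the NC libraries and 5.85, 4.95 and 5.96 CPM in the si-NEAT1_2 libraries. Neither gene's groups overlapped, with log2 fold changes of 0.40 ± 0.16 and 0.56 ± 0.22; the count of USP18 was not whole in 1 library, so reads were shared with another locus there. HERC5 had 28.2, 27.9 and 25.5 CPM in the NC libraries and 29.2, 30.7 and 30.1 CPM in the si-NEAT1_2 libraries, a difference of 0.14 ± 0.13 on the log2 scale without overlap of the groups. For HERC6, a paralogue of HERC5, the log2 fold change was -0.05 ± 0.16.

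The ADP-ribosylation genes had log2 fold changes below 0. PARP9 and DTX3L form a complex that modifies histones, and PARP14 is a mono-ADP-ribosyltransferase. DTX3L, the most abundant of them, had 59.7, 66.6 and 60.9 CPM in the NC libraries and 65.3, 47.4 and 61.1 CPM in the si-NEAT1_2 libraries. PARP9 had 20.2, 24 and 22.4 CPM in the NC libraries and 21.5, 18.3 and 23.8 CPM in the si-NEAT1_2 libraries. The groups overlapped in both, with log2 fold changes of -0.11 ± 0.15 and -0.07 ± 0.16, and si-NEAT1_2 replicate 2 was the lowest library in each. PARP14 had a log2 fold change of -0.37 ± 0.20. PARP9 and DTX3L also share exon bases on opposite strands.

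Of the transcription factors, IRF9, the DNA-binding subunit of ISGF3, had the lowest unadjusted p. IRF9 had 17.8, 14.2 and 16.7 CPM in the NC libraries and 22, 24 and 30.03 CPM in the si-NEAT1_2 libraries, and every si-NEAT1_2 library was above every NC library. The log2 fold change was 0.64 ± 0.17. STAT2, its partner, had a log2 fold change of -0.19 ± 0.19, and IRF7, a factor that induces interferon genes, had 0.38 ± 0.25. Both had overlapping groups.

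The other interferon-induced genes held the largest difference of the members tested, that of IFI27. IFI27 (chr14:94104836-94116698), which encodes a mitochondrial protein, had 1.2, 0.382 and 1.98 CPM in NC replicates 1, 2 and 3 and 2.15, 5.46 and 5.2 CPM in si-NEAT1_2 replicates 1, 2 and 3. The groups did not overlap, with NC replicate 2 lowest and si-NEAT1_2 replicate 1 just above the highest NC library, and the log2 fold change was 1.83 ± 0.51. IFI6 (chr1:27666061-27672218), which encodes an anti-apoptotic membrane protein, was more abundant at 20.04 to 59.2 FPKM. It had 20.5, 16.2 and 27.2 CPM in NC replicates 1, 2 and 3 and 30.7, 49.8 and 49.9 CPM in si-NEAT1_2 replicates 1, 2 and 3. All si-NEAT1_2 libraries were above all NC libraries, with a log2 fold change of 1.03 ± 0.23 and the lowest unadjusted p of the members.

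Smaller differences were found in the rest of this group. IFI35 had 13.7, 11.9 and 14.8 CPM in the NC libraries and 17.6, 28 and 17.7 CPM in the si-NEAT1_2 libraries. LGALS3BP, a secreted glycoprotein that binds galectins, had 296, 259 and 305 CPM in the NC libraries and 335, 381 and 427 CPM in the si-NEAT1_2 libraries. Neither gene overlapped between the groups, with log2 fold changes of 0.65 ± 0.20 and 0.41 ± 0.13. IFI44L had 4.27, 5.98 and 4.69 CPM in the NC libraries and 6.99, 4.74 and 6.48 CPM in the si-NEAT1_2 libraries, and its log2 fold change was 0.29 ± 0.23 with overlapping groups. On the FPKM scale IFI44L was lower in si-NEAT1_2 (1.95, 1.79 and 2.2 FPKM in the NC libraries and 1.75, 1.05 and 1.84 FPKM in the si-NEAT1_2 libraries), so its direction depended on the unit. IFI44 and EPSTI1 had log2 fold changes of 0.09 ± 0.14 and 0.62 ± 0.46. All 7 tested genes of this group had a log2 fold change above 0, with a median of 0.62. An unadjusted p under 0.05 was found for 4 of them (11.2% of all genes tested were higher by this rule). After the GC and length correction it was found for 3 (8.24% of all genes), with a median of 0.66.

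Too few reads were found for the other 5 members. CXCL10 and CXCL11, chemokines that attract T cells, had at most 8 reads in a library, and XAF1, MX2 and IFITM1 were under 1 FPKM in all libraries. MX2 had 0, 0.060 and 0.040 FPKM in the NC libraries and 0.030, 0.10 and 0.55 FPKM in the si-NEAT1_2 libraries. IFITM1 had 0.13, 0 and 0 FPKM in the NC libraries and 0.39, 0.34 and 0.48 FPKM in the si-NEAT1_2 libraries, and was listed at 0 in NC replicates 2 and 3.

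The GC content and the length of the transcripts moved with the differences. Over the 38 members, the Spearman correlation of the log2 fold change with GC content was 0.63 and with length -0.56, and over the 12581 tested genes with an Ensembl identifier it was 0.63 and -0.50. These points share the same 6 libraries. The members ranged from 36.0% GC in SAMD9 to 66.8% GC in IRF7. Of the 17 members with a GC content of at least 50%, 16 had a log2 fold change above 0, with a median of 0.58, while 79.3% of all such genes were above 0, with a median of 0.22. Of the 21 members with a lower GC content, 12 were above 0, with a median of 0.09, while 28.8% of all such genes were above 0, with a median of -0.19. In both GC classes the members' median was above that of all genes.

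**Figure D2:**
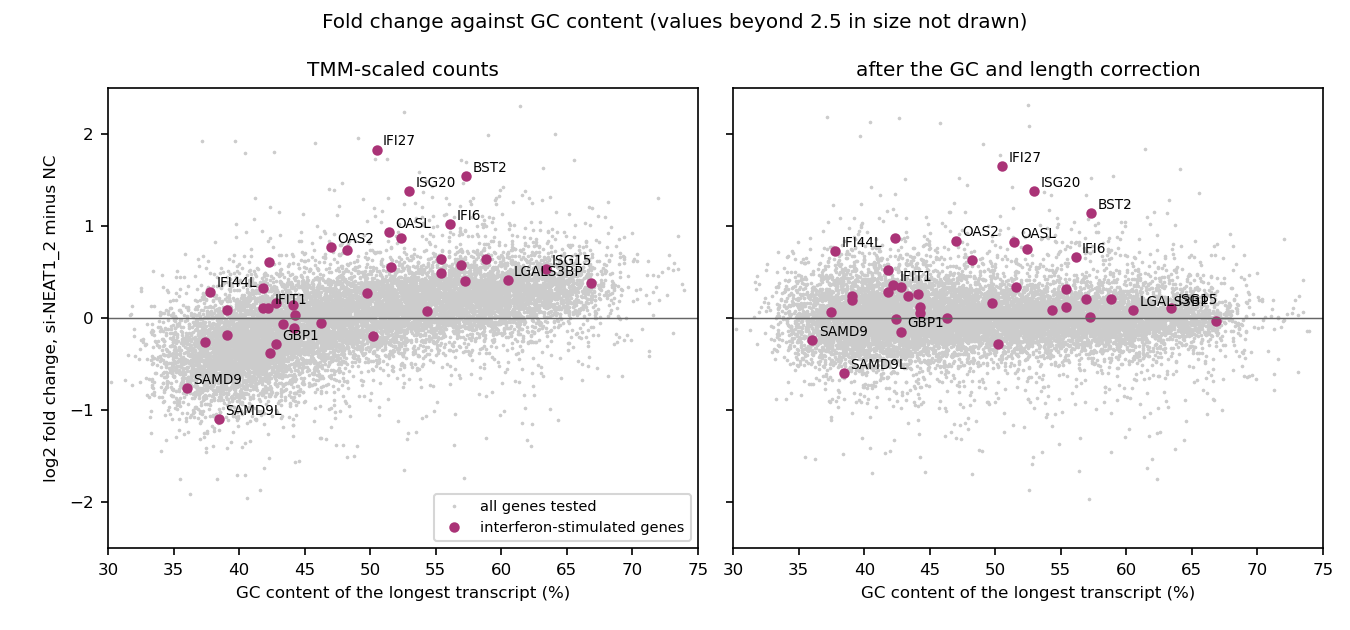
Each purple point is 1 of the 38 members and each grey point 1 of all genes tested with a GC value, with GC content of the longest transcript (percent) on the x axis and the log2 fold change, si-NEAT1_2 minus NC, on the y axis. Without the correction (left) fold changes increase with GC content (Spearman 0.63 for members). After it (right) they do not (Spearman 0.08), since the correction removes that trend by design. IFI27, ISG20 and BST2 stay above 1.

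After a correction of each library for GC content and length, 31 of the 38 members had a log2 fold change above 0, compared with 49.4% of the 12581 genes. The median was 0.22, and that of all genes was -0.0036. An unadjusted p under 0.05 was found for 13 members that were higher (8.24% of all genes) and for 0 that were lower (8.08% of all genes). In 14 members all si-NEAT1_2 libraries lay above all NC libraries (10.1% of all genes), and GBP1 was the only member with all of them below (12.2% of all genes). The number called by edgeR was again 0 members, with 13 members at an unadjusted p under 0.05 and a lowest adjusted p of 0.168. In this fit 1 gene was called higher (0.00795% of all genes) and 3 lower (0.0238%), and at an adjusted p under 0.05 alone 0.0477% of all genes were higher and 0.0318% lower. When NC replicate 2 was left out, the 13 became 7 (3.78% of all genes), and when si-NEAT1_2 replicate 3 was left out they became 8 (8% of all genes) and the median became 0.15.

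Members that were higher at an unadjusted p under 0.05 in either fit fell into 3 sets. The first set, 7 genes, was chosen for an unadjusted p under 0.05 in both fits. A difference that remains after the correction is therefore partly built into this choice. The values with all 6 libraries follow, and IFI6 for instance had a log2 fold change of 1.03 before the correction and a smaller one after it. IFI27 had a corrected log2 fold change of 1.65 ± 0.48, ISG20 of 1.38 ± 0.46 and BST2 of 1.14 ± 0.48. Without si-NEAT1_2 replicate 3 the corrected log2 fold change of BST2 was 0.53. The corrected log2 fold change was 0.84 ± 0.21 in OAS2, 0.83 ± 0.19 in OASL, 0.66 ± 0.17 in IFI6 and 0.63 ± 0.16 in OAS1. After the correction the groups of BST2 overlapped, whereas those of the other 6 genes did not.

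A second set of 8 genes had an unadjusted p under 0.05 without the correction only. It held ISG15, USP18 and UBE2L6 of the ISG15 system, IFITM2 and IFITM3, and IFI35, IRF9 and LGALS3BP. Their transcripts have GC contents of 51.6% to 63.4%. The log2 fold change of ISG15 went from 0.53 to 0.11 ± 0.10, that of UBE2L6 from 0.40 to 0.01 ± 0.09 and that of IFITM3 from 0.58 to 0.20 ± 0.11. That of IRF9 went from 0.64 to 0.31 ± 0.14, and that of IFI35 from 0.65 to 0.21 ± 0.12, with groups that still did not overlap. The corrected values were 0.34 ± 0.20 for USP18, 0.12 ± 0.09 for IFITM2 and 0.09 ± 0.09 for LGALS3BP.

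The third set of 6 genes, IFIT1, IFIT2, IFI44L, RSAD2, HERC5 and PARP9, had an unadjusted p under 0.05 with the correction only. Their transcripts have GC contents of 37.8% to 44.1%. IFI44L went from 0.29 to 0.73 ± 0.17 on the log2 scale, and its 3 si-NEAT1_2 libraries then lay above all NC libraries. RSAD2 went from 0.33 to 0.52 ± 0.22, IFIT1 from 0.11 to 0.36 ± 0.14 and IFIT2 from 0.17 to 0.34 ± 0.13. HERC5 went from 0.14 to 0.26 ± 0.10. PARP9 changed sign, from -0.07 to 0.25 ± 0.11, as did DTX3L, from -0.11 to 0.13 ± 0.08, and IFIT5, IRF7 and DDX60. SAMD9L and SAMD9 had -0.60 ± 0.27 and -0.24 ± 0.19, and PARP14 was at -0.0039.

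**Figure D3:**
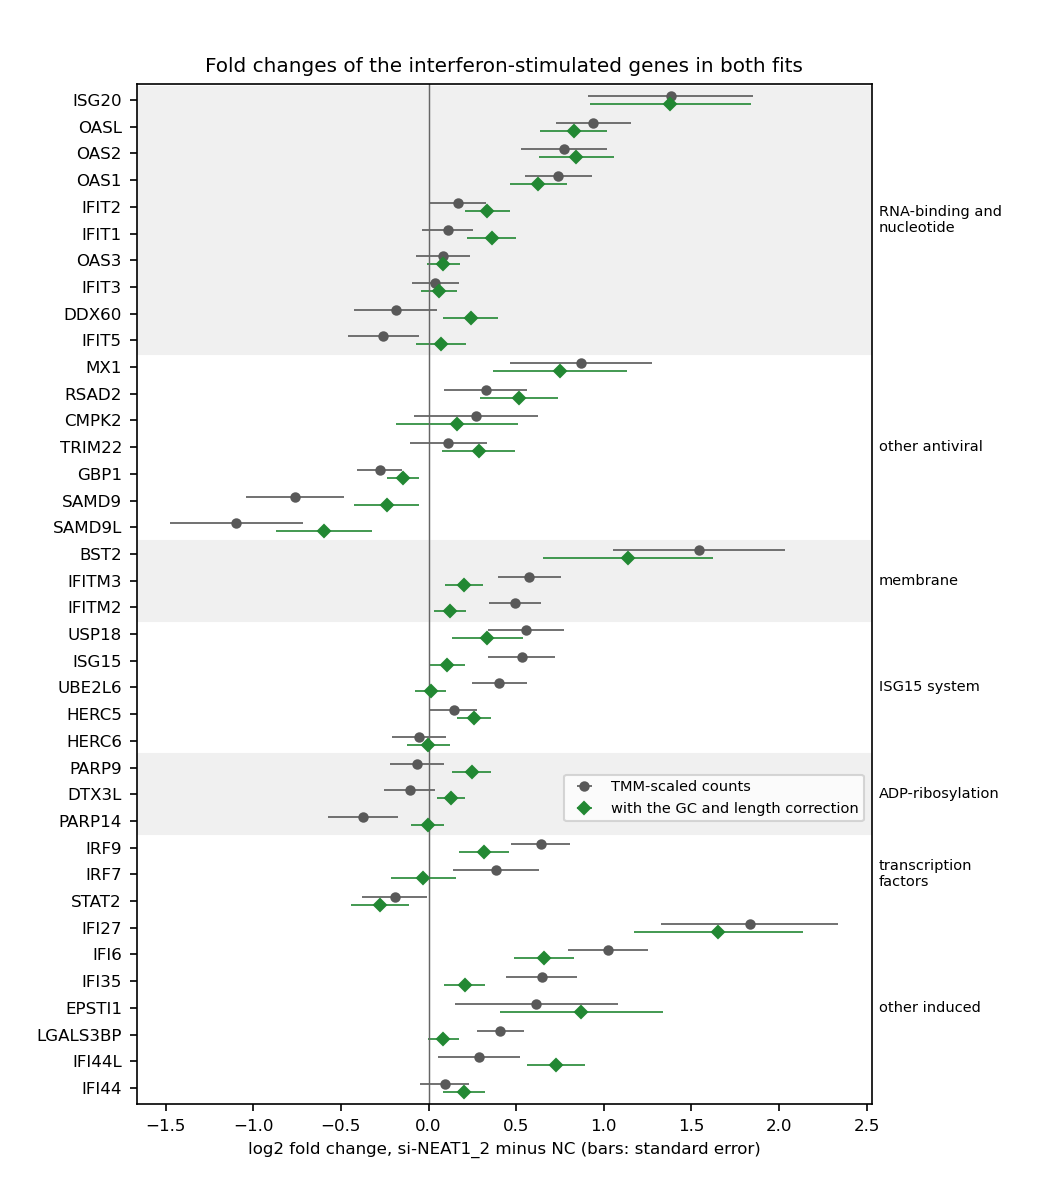
Each row is 1 of the 38 members tested, with the log2 fold change, si-NEAT1_2 minus NC, without (grey circles) and with (green diamonds) the GC and length correction; bars are standard errors. ISG20, OAS1, OAS2 and OASL hardly move, ISG15, UBE2L6 and IFI35 move toward 0, and IFI44L, PARP9 and IFIT1 move to the right.

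The size of the difference varied among the 3 si-NEAT1_2 libraries. Relative to the mean of the NC libraries, the median of the 38 members was 0.22, 0.19 and 0.39 on the log2 scale in si-NEAT1_2 replicates 1, 2 and 3, and -0.03, -0.03 and 0.06 in NC replicates 1, 2 and 3. After the correction the medians were 0.15, 0.06 and 0.33 in si-NEAT1_2 and -0.02, -0.03 and 0.04 in NC. Each si-NEAT1_2 median was above each NC median, and replicate 3 was the highest. After the correction the margin was small for si-NEAT1_2 replicate 2 (0.064, against 0.038 in NC replicate 3). The NC libraries are part of the mean they are set against, which holds their medians near 0. In si-NEAT1_2 replicate 3, 34 of the 38 members were above the NC mean after the correction, compared with 31 in replicate 1 and 25 in replicate 2. NC replicates 1, 2 and 3 had 15, 14 and 28 members above it. The uncorrected median log2 fold change of the members was 0.18 when NC replicate 1 was left out and 0.19 when si-NEAT1_2 replicate 3 was left out.

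The description labels give each library a code, L2, L3 or L4, whose meaning is not given in the sources used here. Within code L2 (NC replicates 2 and 3 against si-NEAT1_2 replicate 2), 22 of the 38 members had a log2 difference above 0 (50.1% of all genes), with a median of 0.15. Within code L3 (NC replicate 1 against si-NEAT1_2 replicate 3), 33 of the 38 were above 0 (49.7% of all genes), with a median of 0.44. With the correction the numbers were 26 of 38 and 0.06 in L2, and 34 of 38 and 0.38 in L3 (51.3% and 45.3% of all genes were above 0). Only si-NEAT1_2 replicate 1 carried code L4, so no comparison within it was possible. The median was 0.32 with the code as a covariate.

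The genes that carry the interferon signal were described from a fixed list. Over all genes tested, 11.2% were higher and 12.9% lower at an unadjusted p under 0.05. After the correction these shares were 8.24% and 8.08%. The receptors and kinases and the inhibitors had at most 2 genes in either direction at such a p, too few to read as a result. Of 10 interferon genes, 9 were at or near 0, and only IFNE, an interferon of epithelia, had enough reads. IFNE had 0.40, 1.37 and 1.02 FPKM in the NC libraries and 0.22, 0.030 and 0.54 FPKM in the si-NEAT1_2 libraries, with a log2 fold change of -1.75 ± 0.73, which was -1.51 ± 0.73 after the correction. Its groups overlapped. Of 9 receptor subunits and kinases, IFNGR2 was higher and IFNAR1 and JAK2 were lower at an unadjusted p under 0.05, and after the correction IL10RB was the only one, higher by 0.42 ± 0.12. Of the 6 tested factors of the list, 3 were higher at an unadjusted p under 0.05: IRF1, itself induced by interferon, with 0.44 ± 0.15, IRF3 with 0.49 ± 0.16 and IRF5 with 0.58 ± 0.21. After the correction IRF1 alone had such a p, with 0.41 ± 0.12. Of the 7 tested inhibitors of the pathway, PIAS4 was higher and PTPN11 lower at an unadjusted p under 0.05, with corrected values of 0.07 ± 0.09 and -0.30 ± 0.10. For SOCS1 and SOCS3, feedback inhibitors of the kinases, the log2 fold changes were 0.26 ± 0.25 and 0.19 ± 0.14. Of 5 genes listed for scale, 0 had an unadjusted p under 0.05 without the correction and ACTB had with it (-0.18 ± 0.07), while GAPDH went from 0.34 ± 0.16 to -0.04 ± 0.07.

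Members with and without the ISRE letters had positive medians in both fits. The 23 tested members with the letters had a median log2 fold change of 0.14, and the 8 tested members with a window but without the letters had 0.34. After the correction the medians were 0.24 and 0.09. OAS1, without the letters in its window, was among the genes higher in both fits, as were ISG20, IFI27, IFI6 and BST2, whose sites are printed above.

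In a further deposited table, which holds a single NC and a single si-NEAT1_2 column, most of these genes were lower in si-NEAT1_2. This group table has no replicates, was normalized separately from the libraries, and how it was made, or whether from these same libraries, is not given in the sources used here. Its summed counts were 17678761 for NC and 19579897 for si-NEAT1_2, below every library. In it, 39 members reached 0.1 FPKM in a column, and 35 of them were lower in si-NEAT1_2 (65.9% of all genes were). At a ratio of 2 or more, 19 members were lower (19% of all genes) and 0 were higher (5.47% of all genes). The median log2 ratio was -0.98 over the members and -0.27 over all genes. ISG15, ISG20, BST2 and GBP1 were the 4 members with the higher value in the si-NEAT1_2 column.

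Single genes differed widely between the table and the libraries. IFIT1 had 2.0 FPKM in the NC column and 0.19 FPKM in the si-NEAT1_2 column, and 13.7 to 18 FPKM in the libraries. OAS2 had 1.84 FPKM in the NC column and 0.367 FPKM in the si-NEAT1_2 column, although it was higher in the si-NEAT1_2 libraries. IFI27 had 63.2 FPKM in the NC column and 45.2 FPKM in the si-NEAT1_2 column, above every library (0.78 to 10.7 FPKM). RSAD2 was listed at 0 in both columns, while all 6 libraries had 1.0 to 1.64 FPKM. ISG20 had 7.63 FPKM in the NC column and 11.1 FPKM in the si-NEAT1_2 column. BST2 had 0.17 FPKM in the NC column and 0.283 FPKM in the si-NEAT1_2 column, from expected counts of only 3.33 and 5.67. ISG20 and BST2 were thus higher in si-NEAT1_2 in the table as in the libraries. The NC column of ISG20 lay far above its NC libraries (0.20 to 1.14 FPKM). IFI6 had 14.3 FPKM in the NC column and 9.37 FPKM in the si-NEAT1_2 column. OASL had 2.19 FPKM in the NC column and 1.75 FPKM in the si-NEAT1_2 column, so both were lower in si-NEAT1_2 in the table and higher in the libraries.

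**Figure D4:**
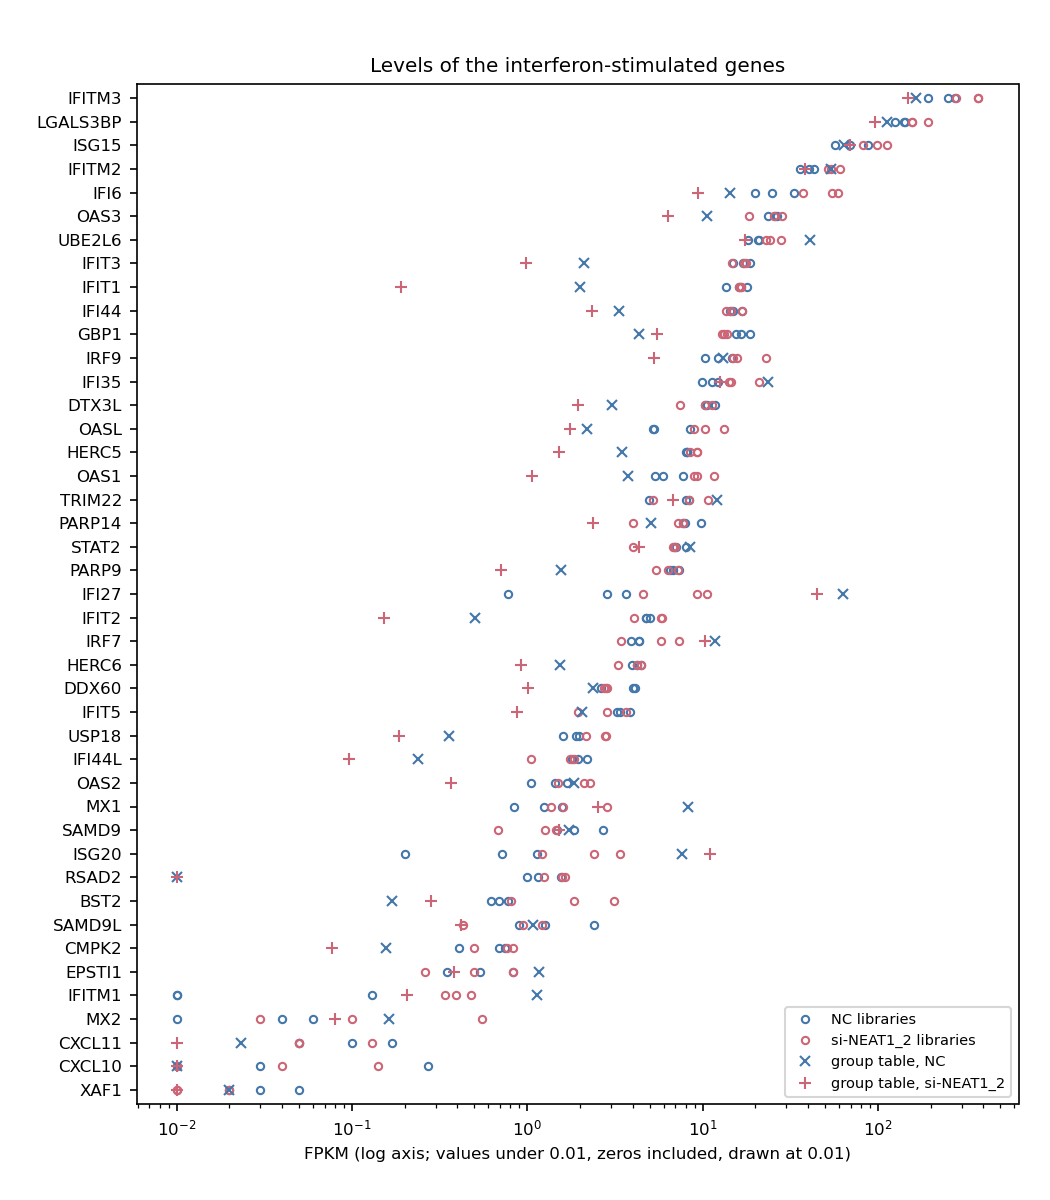
Each row is 1 of the 43 members, ordered by mean FPKM over the libraries, on a log axis; open circles are the 3 NC (blue) and 3 si-NEAT1_2 (red) libraries, crosses and plus signs the 2 columns of the group table, and values under 0.01 are drawn at 0.01. The table's IFIT1, IFIT3, IFI44 and OAS1 values lie far left of the circles and its IFI27, ISG20 and MX1 NC values far right, so the levels differ between the sources in both directions.

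The difference lay in the NC values as well as in the ratio. For the 38 tested members, the NC column was below all NC libraries in 23, above all of them in 11 and within their range in 4. Of 12598 genes, 6682 were below, 4130 above and 1786 within, so most genes outside the list also lay outside the range. In 16 members the NC column was at 0.5 times the lowest NC library or less (17.2% of all genes), and in 4 it was at least 2 times the highest (10.7% of all genes). Set side by side for 37 members, 24 were higher in the libraries and lower in the table (30.5% of all genes), 3 were higher in both, 9 were lower in both, and 1, GBP1, was lower in the libraries and higher in the table. With the GC and length correction these numbers were 27, 3, 6 and 1, and 31.2% of all genes were higher in the libraries and lower in the table.

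**Figure D5:**
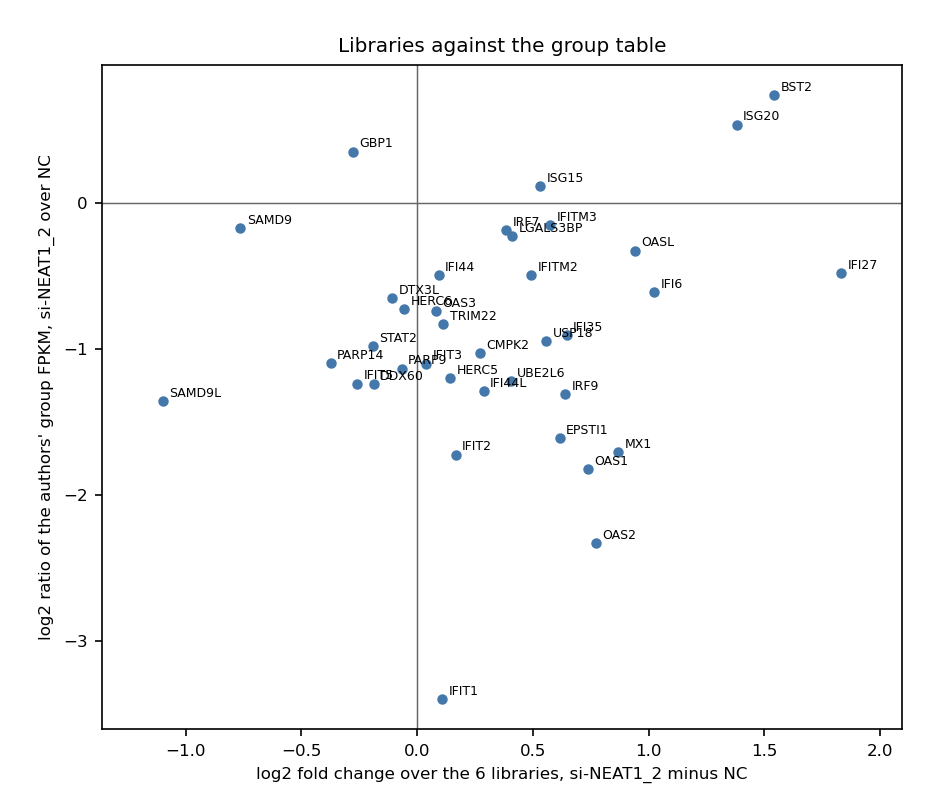
Each point is 1 of 37 members, with the log2 fold change over the 6 libraries, si-NEAT1_2 minus NC, on the x axis and the log2 ratio of the group FPKM values, si-NEAT1_2 over NC, on the y axis. Most points (24) lie at the lower right, higher in the libraries and lower in the table, and only ISG15, ISG20 and BST2 lie in the upper right.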

How the data were processed

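The 6 mRNA-seq libraries were grouped by their labels into 3 NC and 3 si-NEAT1_2. The study's methods name oligo(dT) enrichment, rRNA removal, TopHat2 and RSEM, and the submitters' processing notes list fastp 0.18.0, Bowtie2 2.2.8, HISAT2, StringTie 1.3.1 and GRCh38; the annotation release is not given in the sources used here. The authors deposited expected counts, estimated per gene and library and not normalized, and FPKM values, scaled for length and library size, for each library and, in a separate table, for each group. The number of value columns left unmapped was 0.

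Expected counts were rounded, filtered with filterByExpr and scaled by TMM, and the quasi-likelihood test of edgeR 4.0.16 (R 4.3.3) was fitted over all genes with Benjamini-Hochberg adjustment. A call needed an adjusted p under 0.05 with a change of at least 2-fold. The correction gave each library an offset from natural splines (5 degrees of freedom each) of GC content and length of the longest GENCODE 29 transcript. This offset removes a trend with GC content or length, whatever its source. Loci without an Ensembl identifier were left out of the correction. Standard errors come from the fit. CPM values are TMM-scaled. Of the members, 14 share exon bases with another annotated gene, 9 with a protein-coding gene, and the counts of IFITM1, IFITM2, IFITM3, USP18 and TRIM22 were not whole in at least 1 library. Group ratios needed 0.1 FPKM in a column.

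DESeq2 1.42.0, limma 3.58.1 on log2(FPKM + 1) and log2(FPKM + 0.1), other filters and scalings, library codes and the omission of each library were alternatives. Scripts were tested on simulated data. The members and lists were chosen with earlier results of these data known. Values per library are given for members with an unadjusted p under 0.05 in either fit and for the most abundant tested member of each role group; MX1, MX2, IFITM1 and the other genes given with values per library outside this rule were chosen after their values were seen or come from the fixed pathway lists. NEAT1 was not analysed here, and some genes of the fixed lists are not reported here.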

Additional observations from a re-analysis of the deposited data

Results flagged for a closer look

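The 3 low-count loci described here were outside the genes tested and had reads in the si-NEAT1_2 libraries above every NC library on average. MX2, a GTPase active against retroviruses, had a mean of 9.67 reads in si-NEAT1_2 and at most 4 in an NC library, and si-NEAT1_2 replicate 3 held most of them. IFITM1 had a mean of 8.61 reads in si-NEAT1_2 and at most 3 in an NC library. An unannotated locus that carries the symbol IFITM3 had a mean of 4 reads in si-NEAT1_2, with all 12 in replicate 3 and 0 in the other libraries. In edgeR without a filter on low counts, the log2 fold changes were 2.02 for MX2 and 3.05 for IFITM1, with adjusted p values of 0.305 and 0.155. The remaining untested members went the other way in that fit, with -0.62 for XAF1, -0.74 for CXCL10 and -0.13 for CXCL11, also from few reads. IFITM1 shares reads with IFITM2 and IFITM3, so its count depends on how reads were divided.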

How the results depend on the processing

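Of 596 values of 26 named members under 23 alternative fits, 27 changed sign, in 5 members, and 21 members kept their direction throughout. Most of the 26 were named for an unadjusted p under 0.05 in either fit of these same libraries, which favors a stable direction. IFIT5, IRF7 and DDX60, which changed sign between the fits, are not among the 26. The number called higher was 1 with DESeq2 and 1 (IFI6) without a filter, and 0 to 4 when a library was left out, the 4 being without si-NEAT1_2 replicate 1. At an adjusted p under 0.05 alone, 4 were higher with DESeq2, 1 without a filter and 0 to 6 with a library left out. With a library left out and the GC and length correction applied, both numbers were 0 in every fit. At an unadjusted p under 0.05, 7 to 16 were higher with a library left out, 7 without NC replicate 2 and with the correction (3.78% of all genes) and 16 without si-NEAT1_2 replicate 1 (15% of all genes). The number lower was 0 with the GC and length correction, 0 with it and the replicate block, 1 with GC content and length taken as the mean over transcripts (chosen after seeing the data), and 0 to 4 with a library left out (0 without NC replicate 2, with 4.08% of all genes, and 4 without si-NEAT1_2 replicate 1, with 18%). Members with all si-NEAT1_2 libraries below NC numbered 1, 1 and 0 in the same 3 corrected fits and 1 to 5 with a library left out (5 without NC replicate 1, with 24.2% of all genes). Limma-trend gave a median log2 fold change of 0.14 with 1 added to FPKM and 0.17 with 0.1 added. The median was 0.15 and 0.44 within codes L2 and L3, 0.061 within L2 with the correction (chosen after seeing the data), 0.15 to 0.42 with a library left out, and -0.95 in the group table, over the 37 tested members with a ratio there. OAS3 was at -0.087 and -0.092 with limma-trend, -0.13 with the mean over transcripts and -0.080 to 0.20 with a library left out, and IFI44L at -0.24 and -0.37 with limma-trend. IFIT1 was at -0.0011 to 0.49 with a library left out. PARP9 was at 0.25, 0.24 and 0.24 and DTX3L at 0.13, 0.12 and 0.11 with the correction, with it and the replicate block, and with the mean over transcripts, and they were at -0.16 to 0.32 and -0.21 to 0.16 with a library left out. The cause was not tested. Same-numbered libraries had correlations of -0.28, -0.36 and -0.01 between their deviations, so the data gave no sign that the replicate numbers mark the pairs the study's methods speak of; other pairings were not tried. With the replicate block 14 members were higher (4.69% of all genes) and 2 lower (7.04%) at an unadjusted p under 0.05, with a median of 0.32. With the block and the correction 11 were higher (4.6%) and 0 lower (5.19%), with a median of 0.22. Neither fit called a member. BST2, ISG20, IFI27 and MX1 rest on few reads, IFI27 on 9 in NC replicate 2, which limits their precision.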
